A study of Mus musculus with 16 samples.

Results

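The Clec genes encode proteins that carry a C-type lectin or C-type lectin-like domain, and they were followed here in sulindac-induced inflammatory lesions of the mouse colon. Every row whose single platform gene symbol begins with Clec, a number and a letter was taken, which gave 33 of the 30702 genes with a named row on the arrays. None of the 33 had more than 1 row. Clec2m, which the platform lists under an older model symbol, fell outside that rule, and Clec17a was not analysed here. The 33 genes comprised 9 activating receptors, 6 members of the DCIR group and related inhibitory receptors, 5 endocytic or endothelial receptors, 8 Clr ligand genes and 5 secreted or other proteins.

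Mucosal RNA of the proximal colon was hybridised to Affymetrix arrays, 1 for each sample. All 16 samples came from male C57BL/6J mice that carried homozygous loxP-flanked Mcc. Mice labelled KO also carried the Villin-cre transgene (VILcreMccf/f), in which the villin promoter drives Cre in intestinal epithelium, so that immune and stromal cells kept the gene. Their Mccf/f siblings without Cre are called WT. From 6 weeks of age and for 10 weeks, mice ate plain control feed or feed to which the anti-inflammatory drug sulindac had been added at 320 ppm. WT mice gave 6 control and 3 sulindac arrays, and KO mice gave 3 control and 4 sulindac arrays. Sulindac samples were inflamed areas only, called lesions below, and control samples were matching normal mucosa, so drug and inflamed state cannot be told apart. No label says whether the arrays of a group came from separate animals, and p-values measure the spread between these samples.

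C-type lectin receptors of myeloid cells bind glycans, lipids and damaged-cell products. Activating members such as Dectin-1 signal through the kinase Syk, either directly or through the adaptors Fcer1g and Tyrobp, to the Card9 complex and NF-kB. Some DCIR-type receptors instead recruit phosphatases. The Clr proteins, encoded by Clec2 genes, include ligands of NK cell receptors of the Klrb1 family, and several of them are made by gut epithelium. Most of these genes lie in clusters on chromosome 6.

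Values are log2 expression after RMA, a method that corrects background, normalises arrays to 1 distribution and combines the probes of a transcript. Array medians lay between 4.90 and 5.05. Mcc ranged from 7.06 to 7.40 over the WT arrays of both diets and from 6.39 to 6.71 over the KO arrays, without overlap. Epcam, a defining gene of epithelium, ranged from 11.93 to 12.22 over all arrays. The labels number the samples in 2 series, 1 lower and 1 higher. All lesions and WT controls 1 to 3 carry lower numbers, and WT controls 4 to 6 and all KO controls carry higher ones. Within the KO comparison, diet and number series therefore cannot be told apart without the WT controls. KO lesion 3 stood apart from the other 3 KO lesions in several results and is named where it does.

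Of the 33 genes, 25 lie on chromosome 6, and these included all 9 that rose in WT lesions and all 10 that rose in KO lesions. In the RefSeq order, Clec4n, Clec4d and Clec4e are direct neighbours, as are Clec1a and Clec7a, and Clec2e and Clec2d. Neighbours did not always change together, since Clec1a and Clec2d passed in neither response. Clec5a lies apart, with 496 genes between it and Clec4f. The 150 bases before the RefSeq start (GRCm38.p6) are shown for 4 risen receptors and for Clec2e, the Clr gene that fell. Each is written 5′ to 3′ on the gene's own strand. Capitals mark matches to the searched motifs, on either strand.
Clec7a, chr6:129472780-129472929, minus strand: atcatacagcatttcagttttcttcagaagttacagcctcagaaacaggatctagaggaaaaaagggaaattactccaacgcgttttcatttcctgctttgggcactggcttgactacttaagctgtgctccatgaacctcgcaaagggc
Clec4e, chr6:123289872-123290021, minus strand: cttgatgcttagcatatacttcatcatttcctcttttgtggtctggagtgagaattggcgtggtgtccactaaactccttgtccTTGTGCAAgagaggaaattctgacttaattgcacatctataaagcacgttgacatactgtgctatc
Clec4d, chr6:123261957-123262106, plus strand: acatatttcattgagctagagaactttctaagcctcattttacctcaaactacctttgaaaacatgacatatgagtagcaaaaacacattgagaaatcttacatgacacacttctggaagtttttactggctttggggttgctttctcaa
Clec5a, chr6:40585806-40585955, minus strand: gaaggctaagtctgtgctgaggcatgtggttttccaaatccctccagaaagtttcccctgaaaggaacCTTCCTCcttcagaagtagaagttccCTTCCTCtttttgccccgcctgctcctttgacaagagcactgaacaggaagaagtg
Clec2e, chr6:129100904-129101053, minus strand: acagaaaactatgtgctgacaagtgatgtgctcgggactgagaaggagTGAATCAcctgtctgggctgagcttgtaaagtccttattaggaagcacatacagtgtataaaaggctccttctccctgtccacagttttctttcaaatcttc
The promoter table held 28 promoters of 25 of the 33 genes, and 250 bases before each start were searched. For each motif, the number of these genes that matched equals the number of their promoters that matched. Binding at the matches was not tested. A PU.1/ETS motif (GAGGAAG) was found in 6 of these genes and in 10.6% of all 32851 promoters. The 6 were Clec5a with 2 matches, Clec4d farther upstream than the bases shown, Clec4a1, Clec12a, Clec16a and Clec18a. A C/EBP motif (TTGCNNAA) was found in 4 genes, namely Clec4e, Clec12a, Clec11a and Clec16a, and in 9.56% of all promoters. The AP-1 pattern (TGANTCA), searched with any base at its centre, matched 5 genes, against 6.75% of all promoters. These included Clec2g, Clec2h and Clec2e, where the letters are TGAATCA. NF-kB (GGGNN followed by TTTCC) matched Clec2l (1.41% of all promoters), STAT (TTCNNNGAA) matched Clec4a2 (7.02%), and CDX (TTTATG) matched Clec4b1 and Clec14a (10.8%). No searched motif matched Clec7a in these letters.

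In WT mice, 9 of the 33 genes rose in lesions and 2 fell, at a Benjamini-Hochberg adjusted p under 0.05 from limma over all genes. Of all 30702 genes, 6.98% rose and 8.36% fell. In KO mice, 10 of the 33 genes rose and 1 fell, against 8.98% and 12.1% of all genes. These shares of all genes are also the background for the counts by role and by marker list below. With number series as a covariate, 8 of the 33 genes rose in KO, against 4.51% of all genes. The risen sets shared 9 genes, which was 9 of 9 in WT and 9 of 10 in KO. The median log2 change of the 33 genes was 0.03 in WT and 0.11 in KO, beside medians over all genes of -0.06 and 0.01. Changes were thus concentrated in a minority, and the roles differed in their counts. Activating receptors held 6 of the 9 WT rises and the DCIR group the other 3.

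**Figure D1:**
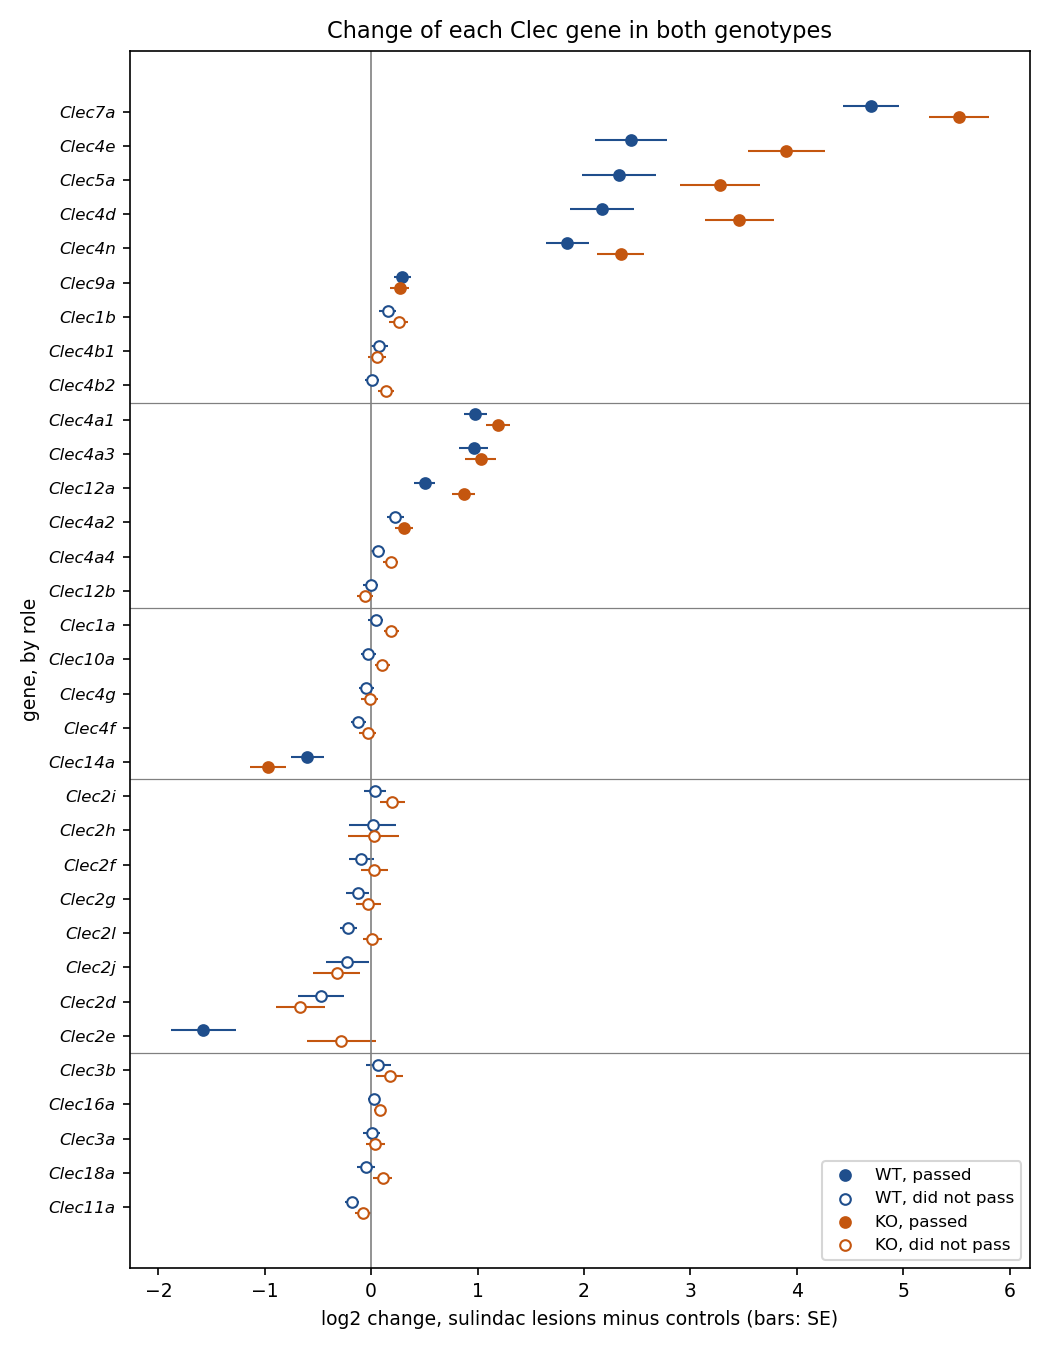
Log2 change from control mucosa to sulindac lesions (x axis, with SE) for each of the 33 Clec genes (y axis, by role), in WT (blue) and KO (orange), where filled points passed an adjusted p of 0.05. Clec7a, Clec4e, Clec5a, Clec4d and Clec4n lie at 1.85 or more in both genotypes, and Clec2e lies at -1.58 in WT and -0.28 in KO.

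Among the 9 activating receptors, 6 rose in both genotypes and none fell, with a median log2 change of 1.85 in WT and 2.34 in KO. The 6 were Clec7a, Clec4n, Clec4e, Clec4d, Clec5a and Clec9a, of which Clec9a lost its calls in many other settings (below). Clec1b, Clec4b1 and Clec4b2 did not pass in either. In bulk tissue, more cells of a type and more RNA per cell cannot be told apart.

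Clec7a encodes Dectin-1, the receptor for fungal beta-glucan. WT controls ranged from 4.38 to 4.72 with a median of 4.48, and WT lesions read 8.88, 9.20 and 9.52. KO controls read 4.70, 4.28 and 4.93, and KO lesions 10.25, 10.72, 9.12 and 10.55. Every lesion stood more than 3 log2 units above every control, and KO lesion 3 lay within the WT lesion range. The log2 change was 4.70 (SE 0.26) in WT, a 25.9-fold difference, with an adjusted p of 2.32e-08. In KO it was 5.52 (SE 0.28), 45.9-fold, with an adjusted p of 1.05e-08. Controls of Clec7a, and of Clec4e, Clec4d, Clec5a, Clec4a2, Clec4a3, Clec12a and Clec9a below, lay under the array medians, where RMA compresses differences and no detection call was given. Folds of these genes are therefore read as lower bounds and are not ranked. The lesion means of Clec4a2, Clec4a3 and Clec9a lay under the median too. Those genes were therefore left out when only genes above the array median in a group were tested.

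Clec4n encodes Dectin-2, a receptor for fungal mannan that signals through Fcer1g. WT controls ranged from 5.28 to 5.64 with a median of 5.40, and WT lesions read 6.95, 7.42 and 7.44. KO controls read 5.27, 5.18 and 5.50, and KO lesions 7.88, 7.81, 6.85 and 8.11. KO lesion 3 was below all WT lesions, while the other KO lesions were above them. The log2 change was 1.85 (SE 0.20, 3.59-fold, adjusted p = 1.84e-05) in WT and 2.34 (SE 0.22, 5.08-fold, adjusted p = 2.34e-06) in KO.

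Clec4e encodes Mincle, which binds mycobacterial cord factor and a nuclear protein of dead cells. WT controls ranged from 3.59 to 3.71 with a median of 3.66, and WT lesions read 5.81, 6.33 and 6.15. KO controls read 3.69, 3.70 and 3.64, and KO lesions 7.66, 8.27, 6.08 and 8.31. Controls were tightly grouped, and KO lesion 3 alone of the KO lesions fell inside the WT lesion range. The change was 2.44 (SE 0.34, adjusted p = 1.38e-04) in WT, at least 5.42-fold, and 3.90 (SE 0.36, adjusted p = 2.27e-06) in KO, at least 15.0-fold.

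Clec4d, its direct neighbour, encodes MCL, which pairs with Mincle. WT controls ranged from 4.02 to 4.38 with a median of 4.28, and WT lesions read 6.35, 6.65 and 6.25. KO controls read 4.33, 4.20 and 4.28, and KO lesions 7.62, 8.57, 6.50 and 8.23. The order of the lesions resembled that of Clec4e, with KO lesion 3 again among the WT lesions. Clec4d changed by 2.17 (SE 0.30, adjusted p = 1.29e-04) in WT and 3.46 (SE 0.32, adjusted p = 2.16e-06) in KO.

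Clec5a encodes MDL-1, a myeloid receptor that signals through Tyrobp. WT controls ranged from 3.69 to 4.15 with a median of 3.96, and WT lesions read 5.10, 6.65 and 7.03. KO controls read 3.74, 3.80 and 3.82, and KO lesions 6.69, 7.75, 6.28 and 7.54. WT lesion 1 was the lowest lesion by more than 1 log2 unit, and the WT and KO lesions overlapped. The change was 2.33 (SE 0.35, adjusted p = 2.69e-04) in WT and 3.28 (SE 0.38, adjusted p = 1.82e-05) in KO.

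**Figure D2:**
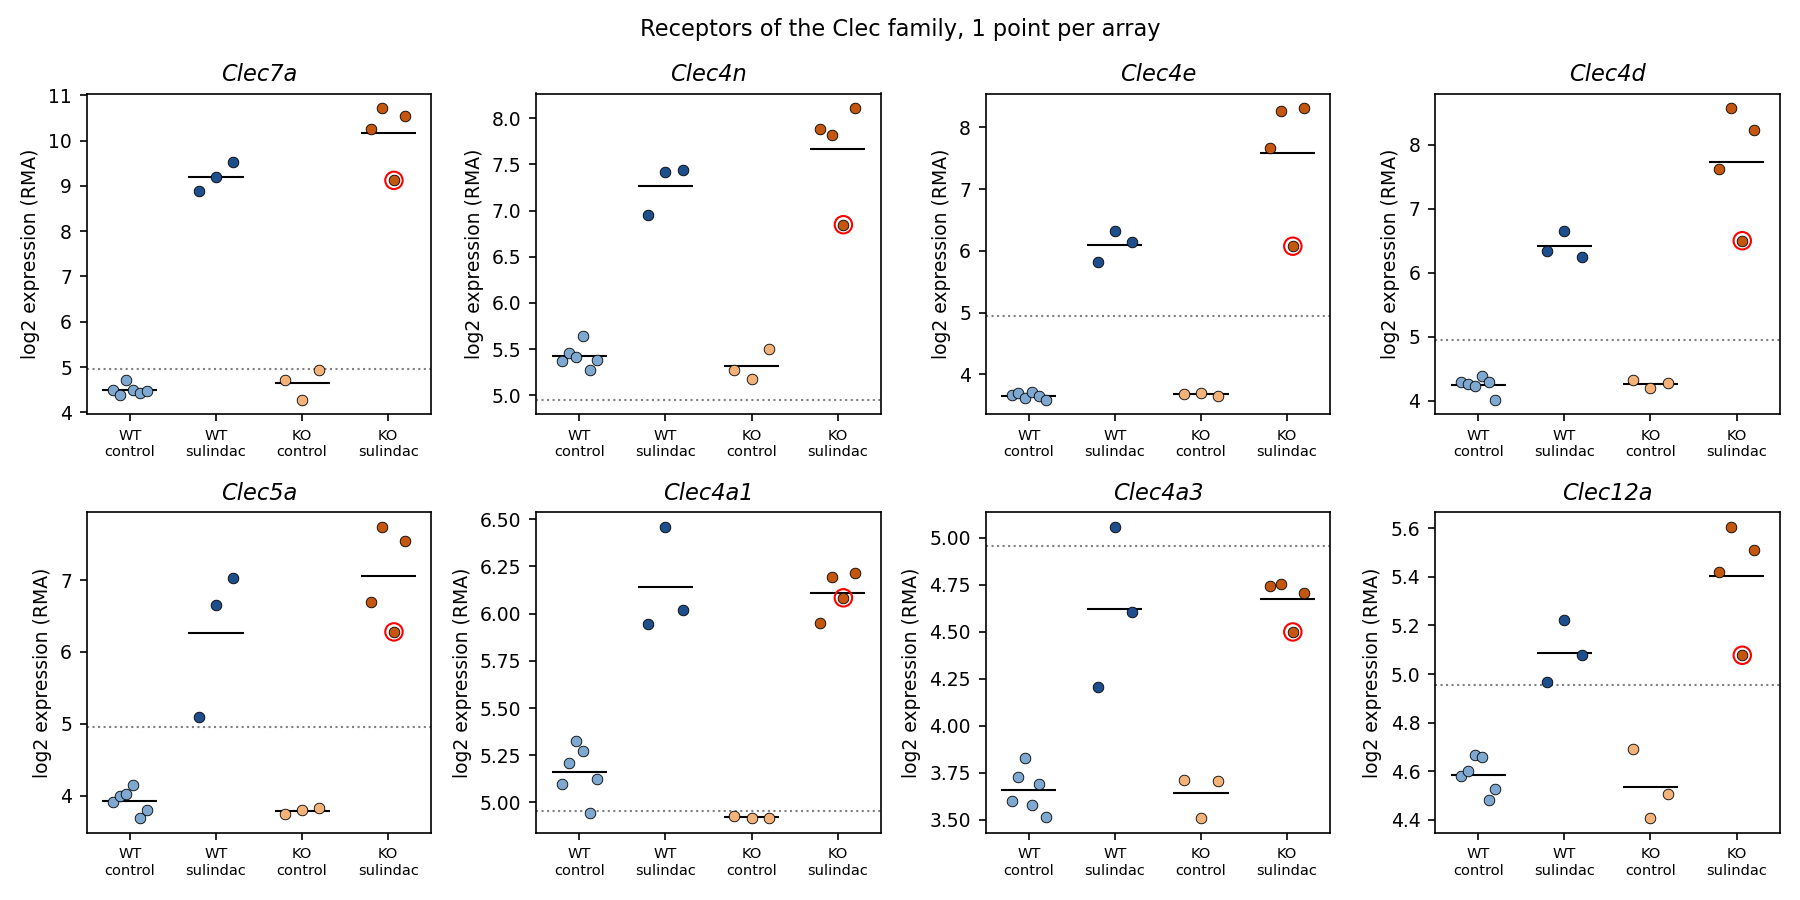
Log2 expression (y axis) of 8 Clec receptor genes in the 4 groups (x axis), 1 point per array, with the group mean as a bar, the median of all array medians (4.95) as a dotted line and KO lesion 3 circled. Lesions stand above controls in all 8 panels, and the circled point is the lowest KO lesion in every panel but Clec4a1.

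The remaining activating receptors moved little. Clec9a, which encodes the dead-cell receptor DNGR-1 of cross-presenting dendritic cells, had a WT control mean of 3.94 ± 0.13 (SD, n = 6) and a WT lesion mean of 4.23 ± 0.02 (SD, n = 3). Its change was 0.29 (adjusted p = 0.0230) in WT and 0.27 (adjusted p = 0.0405) in KO. With replicate numbers as a block, a fit that left out WT controls 4 to 6, the WT call was lost (adjusted p = 0.0939). It was also lost without a block when only WT controls of the lower series were kept (adjusted p = 0.0718). The same held with number series as a covariate (adjusted p = 0.0675). Leaving out WT lesion 1 (adjusted p = 0.0563), WT lesion 2 (adjusted p = 0.0734) or WT lesion 3 (adjusted p = 0.0885) also lost it. With number series as a covariate the KO call was lost (adjusted p = 0.347). A fit of only the 2 groups compared lost it too (adjusted p = 0.0878), as did testing all rows (adjusted p = 0.0736). Leaving out KO control 1 or 2, or KO lesion 1, 3 or 4, also lost the KO call. Of the dendritic cell markers, 3 of 9 rose and 1 fell in WT lesions, and 4 rose and 1 fell in KO lesions. The fallen marker was Cd24a in both, and Xcr1, a marker of cross-presenting dendritic cells, rose by 0.37 in WT and differed by 0.18 (adjusted p = 0.335) in KO. Cd24a and Xcr1 are named after their values were seen, and their part in the Clec9a result was not tested. Clec1b, the platelet receptor for podoplanin, differed by 0.15 (adjusted p = 0.247) in WT and 0.26 (adjusted p = 0.0548) in KO. Clec4b1 and Clec4b2, the DCAR receptors, lay between 3.13 and 3.68 on every array.

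In the DCIR and inhibitory group, 3 of 6 genes rose in WT and 4 of 6 in KO, with median log2 changes of 0.36 and 0.59. Which of the 6 recruit phosphatases was not tested, so these counts are not counts of inhibitory receptors. Clec4a1, a DCIR-related gene, ranged from 4.94 to 5.32 in WT controls with a median of 5.17, and WT lesions read 5.94, 6.46 and 6.02. KO controls read 4.93, 4.92 and 4.92, and KO lesions 5.95, 6.20, 6.08 and 6.22. The lesions of both genotypes occupied 1 range. Clec4a1 changed by 0.98 (SE 0.11, adjusted p = 1.69e-05) in WT and 1.19 (SE 0.12, adjusted p = 3.19e-06) in KO.

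Clec4a3, the next gene on the chromosome, ranged from 3.52 to 3.83 in WT controls with a median of 3.64, and WT lesions read 4.20, 5.06 and 4.60. KO controls read 3.71, 3.51 and 3.71, and KO lesions 4.74, 4.75, 4.50 and 4.70. All lesions exceeded all controls, and the WT lesions spanned the KO lesions. The change was 0.96 (SE 0.13, adjusted p = 1.54e-04) in WT and 1.03 (SE 0.15, adjusted p = 1.06e-04) in KO. Clec4a genes are close paralogues, and how far their probes share sequence was not tested.

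Clec12a encodes MICL, an inhibitory receptor for uric acid crystals. The WT control mean was 4.59 ± 0.07 (SD, n = 6) and the WT lesion mean 5.09 ± 0.13 (SD, n = 3). The KO control mean was 4.53 ± 0.14 (SD, n = 3) and the KO lesion mean 5.40 ± 0.23 (SD, n = 4). It rose by 0.50 in WT (adjusted p = 2.87e-03) and 0.87 in KO (adjusted p = 4.10e-05). Clec4a2, the gene of DCIR itself, differed by 0.23 in WT (adjusted p = 0.0623) and rose by 0.31 in KO (adjusted p = 0.0155), a call lost with number series as a covariate (adjusted p = 0.239). Clec4a4 differed by 0.07 and 0.18, and Clec12b by -0.01 and -0.06, none of which passed.

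Among the endocytic and endothelial receptors, 1 of 5 fell in each genotype and none rose. Clec14a, a gene of blood vessel endothelium, had means of 5.65 ± 0.18 (SD, n = 6) on WT control arrays and 5.05 ± 0.29 (SD, n = 3) on WT lesion arrays. For KO arrays the control mean was 5.83 ± 0.06 (SD, n = 3) and the lesion mean 4.86 ± 0.35 (SD, n = 4). It changed by -0.60 (adjusted p = 0.0161) in WT, where the arrays overlapped, and by -0.97 (adjusted p = 6.71e-04) in KO, where they did not. With replicate numbers as a block, a fit that left out WT controls 4 to 6, the WT call was lost (adjusted p = 0.0501). It was also lost without a block when only WT controls of the lower series were kept (adjusted p = 0.0874). The same held without WT lesion 1 (adjusted p = 0.0589) or WT lesion 3 (adjusted p = 0.121). Over 7 other endothelial markers, 1 rose in WT and 2 rose in KO and none fell. They were Cdh5, the vascular cadherin, up by 1.31 in WT and 1.29 in KO, and Pecam1, up by 0.44 in KO, both named after their values were seen. Clec14a thus moved opposite to those that passed.

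The other 4 receptors of that role did not pass. Clec10a, the galactose-type macrophage lectin, stayed between 5.64 and 5.96 on all arrays. Clec4f and Clec4g, known from liver macrophages and liver sinusoids, differed by at most 0.12 in size in either genotype, and 0 of 4 liver macrophage and sinusoid markers passed. Clec1a differed by 0.04 in WT and 0.19 (adjusted p = 0.0811) in KO.

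The 8 Clec2 genes, grouped here as Clr ligands, showed 1 fall in WT and no call in KO, with median changes of -0.17 and -0.01. The group includes the pseudogene Clec2j, and Clec2l, which lies apart from the other Clec2 genes on chromosome 6. Whether each encodes a ligand was not tested. Clec2e, which encodes Clr-a, a ligand-type lectin of gut epithelium, ranged from 9.14 to 10.40 in WT controls with a median of 10.06, and WT lesions read 8.20, 8.34 and 8.32. KO controls read 9.52, 9.20 and 10.45, and KO lesions 9.13, 9.94, 9.02 and 9.67. All 3 WT lesions lay below every other array, whereas KO lesions overlapped KO controls. That overlap lies across number series, since KO lesions belong to the lower series and KO controls to the higher. WT controls read 10.14, 9.98 and 10.40 in the lower series and 9.14, 9.31 and 10.20 in the higher, so the 4 KO lesions lay below all 3 WT controls of their own series. Clec2e changed by -1.58 (SE 0.30, 2.98-fold lower, adjusted p = 1.92e-03) in WT and differed by -0.28 (SE 0.33, adjusted p = 0.637) in KO. With number series as a covariate, the WT change was -1.89 (adjusted p = 1.32e-03) and the KO difference -0.90 (SE 0.44, adjusted p = 0.296). The interaction, which tests whether the responses differ, was 1.30 (SE 0.44, adjusted p = 0.406), so the difference between genotypes did not pass. With the covariate it was 0.985 (SE 0.44, adjusted p = 0.789). How far Clec2e responded in KO therefore depends on how number series is treated, and diet and series cannot be told apart within KO.

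Clec2d encodes Clr-b, the ligand of the inhibitory receptor Klrb1b. Its mean was 10.12 ± 0.28 (SD, n = 6) for WT controls against 9.65 ± 0.40 (SD, n = 3) for WT lesions. For KO controls it was 10.22 ± 0.39 (SD, n = 3) against 9.56 ± 0.34 (SD, n = 4) for KO lesions. Its differences of -0.47 (adjusted p = 0.166) and -0.67 (adjusted p = 0.0537) did not pass. Clec2h, another Clr gene of gut epithelium, averaged between 11.39 and 11.43 in all 4 groups. Clec2f, Clec2g, Clec2i, the pseudogene Clec2j and Clec2l differed by between -0.32 and 0.20 in the 2 responses and did not pass. The 10 epithelial markers, averaged per array, ranged from 11.18 to 11.38 in controls and from 10.82 to 11.16 in lesions. In WT lesions 1 of them rose (Krt20) and 3 fell (Slc26a3 by 1.74, Aqp8 by 1.43 and Cdx2 by 0.36), with a median of -0.03. In KO lesions 4 rose (Krt20, Cdh1, Vil1 and Krt8) and 3 fell (Slc26a3 by 2.22, Cdx1 by 0.98 and Cdx2 by 0.64), with a median of -0.02. These markers are named after their values were seen, and their part in the Clec2e result was not tested.

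**Figure D3:**
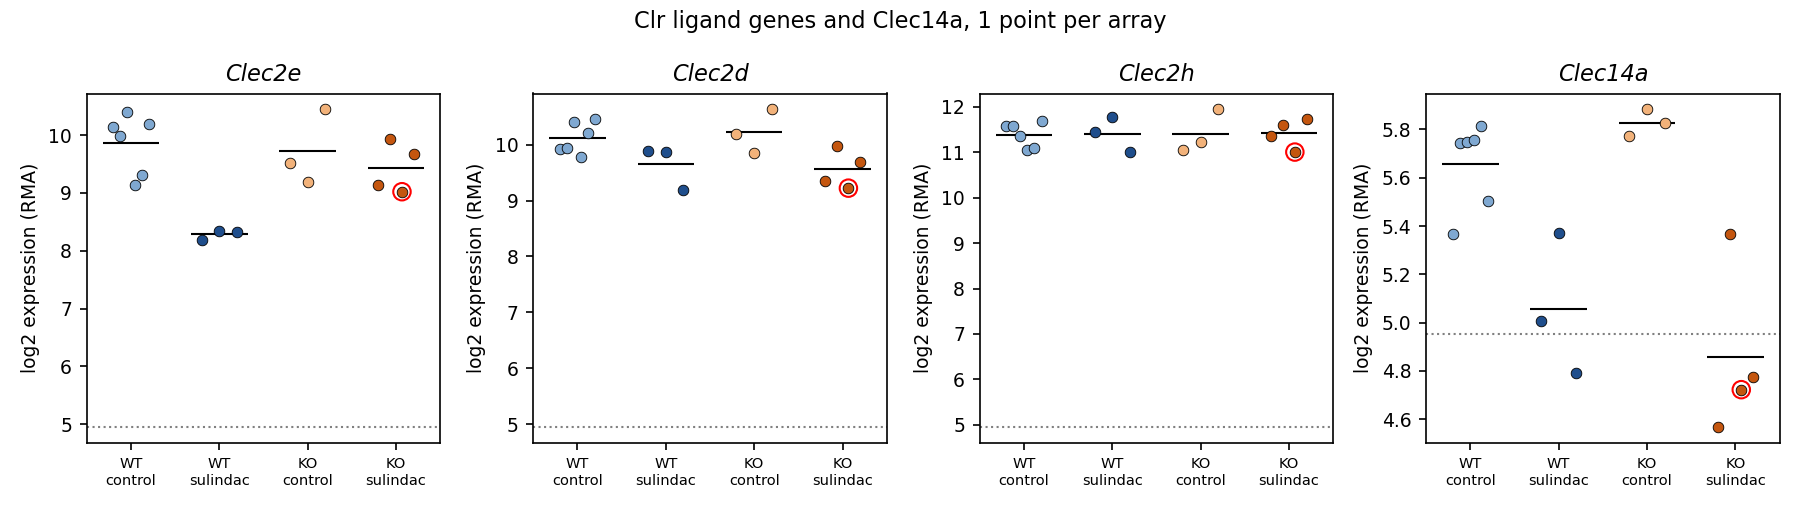
Log2 expression (y axis) of Clec2e, Clec2d, Clec2h and Clec14a in the 4 groups (x axis), 1 point per array, with group means as bars, the median of array medians as a dotted line and KO lesion 3 circled. The 3 Clec2e values of WT lesions, 8.20 to 8.34, lie below all others, and Clec2h overlaps in all groups.

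None of the 5 secreted or other genes passed in either response. Clec3b (tetranectin), Clec3a (a cartilage lectin), Clec11a (a bone growth factor), Clec18a and Clec16a (an endosomal protein of mitophagy) had changes between -0.18 and 0.17. Clec11a came nearest in WT, at -0.18 with an adjusted p of 0.0964.

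**Figure D4:**
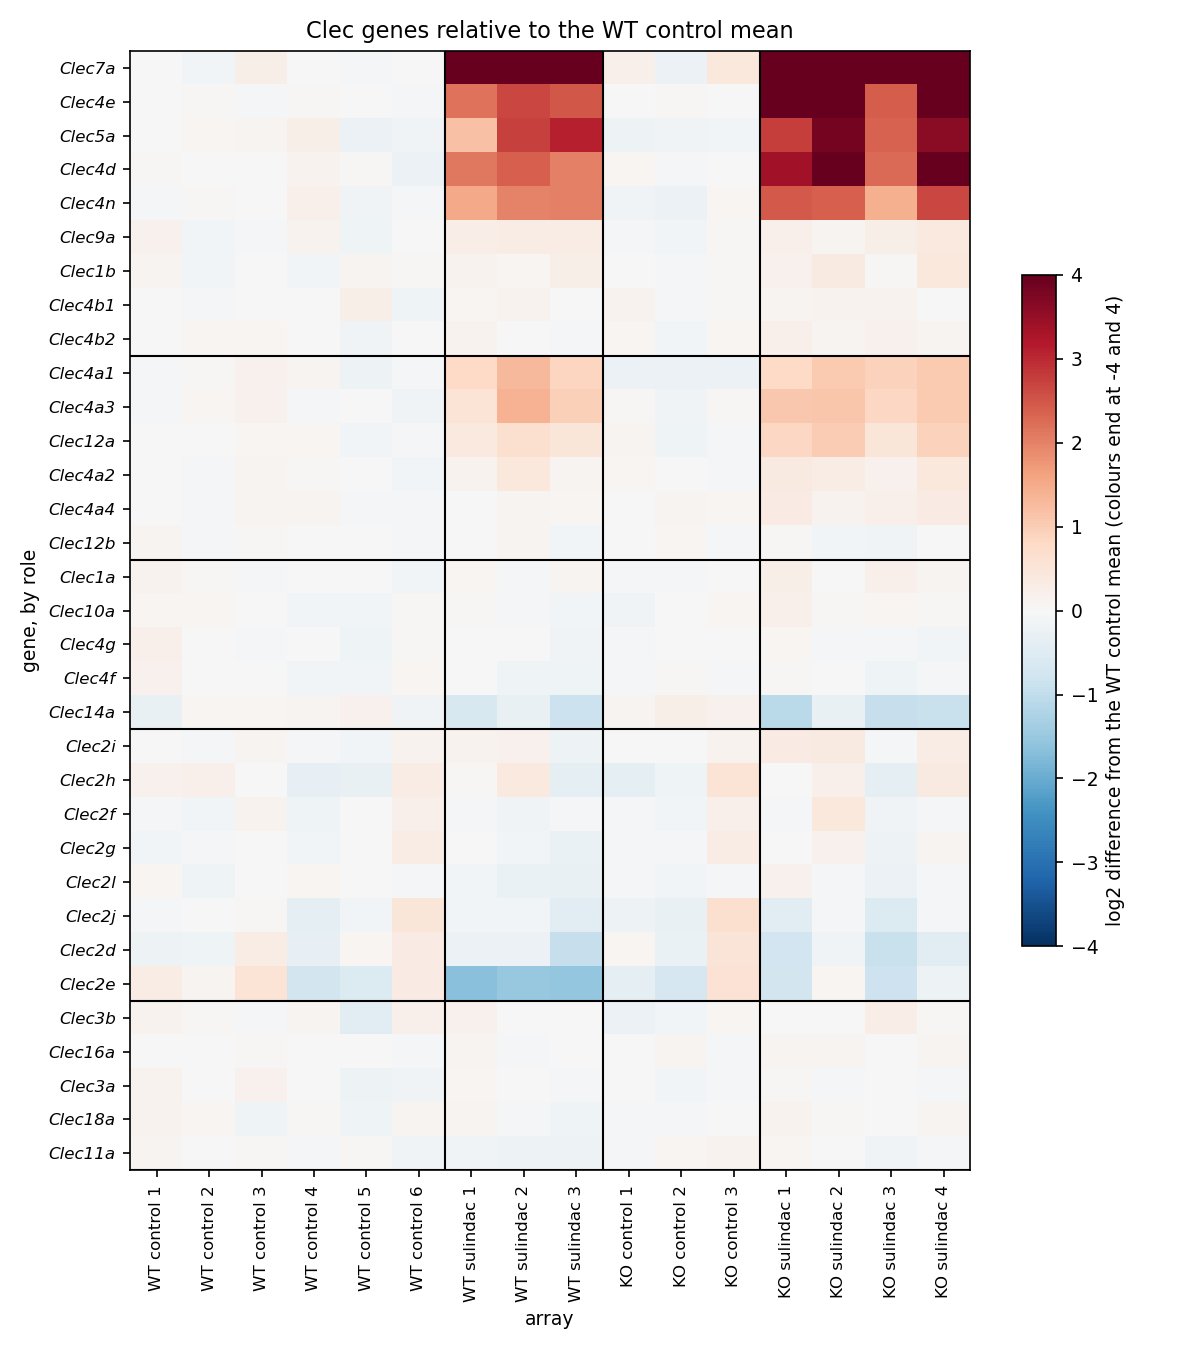
Difference of each Clec gene (rows, grouped by role) on each array (columns, grouped by genotype and diet) from its WT control mean, in log2 units, with colours ending at -4 and 4. The top 5 activating receptors are red on every lesion array, and Clec4a1, Clec4a3 and Clec12a are paler, with Clec12a near white on some. Clec2e is blue on the 3 WT lesions and pale blue on some other arrays. Clec14a is pale blue on most lesions, and most of the other genes are near white throughout.

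On the control diet, the genotypes were compared to ask whether epithelial Mcc loss alone went with altered Clec levels. None of the 33 genes passed, and of all genes 0% passed in either direction, with 641 at an unadjusted limma p under 0.05. Differences of the 33 genes ranged from -0.24 to 0.17. The only one with an unadjusted limma p under 0.05 was Clec4a1, which differed by -0.24 (adjusted p = 0.9995). Its 3 KO controls lay below all 6 WT controls.

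In lesions of the 2 genotypes, again none of the 33 genes passed, where 0.248% of all genes were higher and 0.0586% lower in KO. An unadjusted limma p under 0.05 was reached by 6 of them, namely Clec4e, Clec4d, Clec2e, Clec7a, Clec12a and Clec4a4, all higher in KO lesions. Of all genes, 13.4% reached such a p. Clec4e differed by 1.48 (SE 0.36, adjusted p = 0.106). Clec4d differed by 1.31 (SE 0.32, adjusted p = 0.106). Clec2e stood 1.155 higher (SE 0.33, adjusted p = 0.154), without overlap of the arrays. The difference of Clec7a was 0.96 (SE 0.28, adjusted p = 0.174), that of Clec4n 0.39 (adjusted p = 0.452) and that of Clec12a 0.31 (adjusted p = 0.246).

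These values depended on KO lesion 3. Without it, 6 genes passed: Clec4e at 1.98 (adjusted p = 8.24e-06), Clec4d at 1.72 (adjusted p = 1.01e-04), Clec7a at 1.31 (adjusted p = 7.44e-04), Clec4n at 0.67 (adjusted p = 0.0107), Clec12a at 0.42 (adjusted p = 0.0149) and Clec2e at 1.29 (adjusted p = 0.0415). Of all genes, 2.23% were then higher in KO lesions. Leaving out any other single array gave no call among the 33 genes.

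The interaction asked whether the sulindac response differed by genotype, and none of the 33 genes passed, beside 0.00326% of all genes higher and 0% lower. Clec4e had 1.46 (SE 0.50), Clec4d 1.29 (SE 0.44) and Clec2e 1.30, each with an adjusted p of 0.406. An unadjusted limma p under 0.05 was reached by these 3, Clec7a and Clec12a, and by 11.1% of all genes. Without KO lesion 3, Clec4e (1.96, adjusted p = 3.74e-04), Clec4d (1.70, adjusted p = 3.18e-03), Clec7a (1.17, adjusted p = 0.0220) and Clec4n (0.77, adjusted p = 0.0428) passed, as did 0.909% of all genes in that direction.

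The 6 risen activating receptors were averaged per array. Because they were chosen as risen, a gap between lesions and controls follows from that choice. Their mean ranged from 4.19 to 4.41 in WT controls and from 4.17 to 4.36 in KO controls. WT lesions read 6.22, 6.74 and 6.77, and KO lesions 7.38, 7.86, 6.50 and 7.85. Most neutrophil and macrophage markers also rose in lesions. Of 9 neutrophil markers, 7 rose in WT and 8 in KO, and the mean of the 9 ranged from 4.67 to 4.94 over all controls, from 6.78 to 7.40 in WT lesions and from 7.71 to 9.06 in KO lesions. KO lesion 3 was the lowest KO lesion there too, at 7.71. That value lay above all WT lesions, whereas its Clec mean lay among them. WT lesions 1 to 3 read 7.40, 7.35 and 6.78 for the neutrophil markers, a different order from their Clec means. Between lesions, 3 of the 9 neutrophil markers were higher in KO than WT and none was lower, beside 0.248% of all genes higher. They were Csf3r, Cxcr2 and Retnlg, by 1.36, 1.68 and 2.29, and are named because they passed. These encode a cytokine receptor, a chemokine receptor and a secreted protein of neutrophils. Of 9 monocyte and macrophage markers, 7 rose in each genotype and Mertk, a receptor for dying cells, fell in KO, with array means of 5.72 to 5.99 in controls, 6.98 to 7.21 in WT lesions and 7.10 to 7.52 in KO lesions. The part of these cells in the Clec results was not tested.

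**Figure D5:**
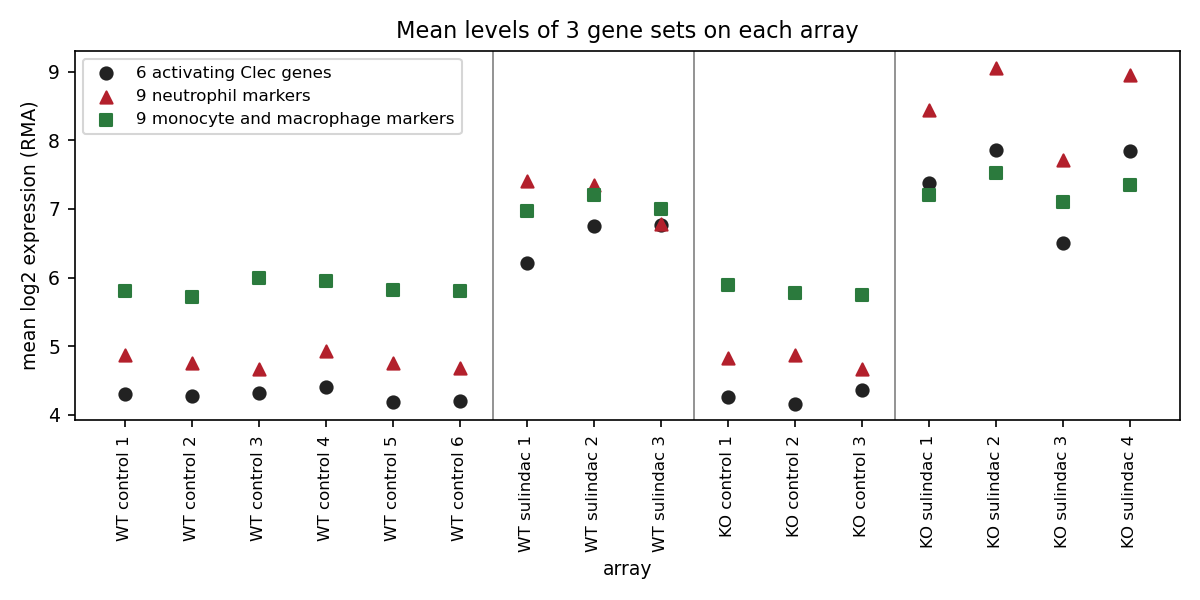
Mean log2 expression (y axis) of the 6 risen activating Clec genes (circles), 9 neutrophil markers (triangles) and 9 monocyte and macrophage markers (squares) on each of the 16 arrays (x axis). All 3 means are higher on every lesion than on any control, and KO lesion 3 has the lowest value of the KO lesions in each. For the circles, the gap between lesions and controls follows from the choice of risen genes.

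Downstream of the activating receptors, 8 of 21 measured signalling genes rose and 2 fell in WT lesions, beside 6.98% and 8.36% of all genes. In KO lesions 12 of them rose and 0 fell, beside 8.98% and 12.1% of all genes. The adaptor Fcer1g rose by 1.58 (SE 0.13) and 1.88 (SE 0.14), and the adaptor Tyrobp by 1.57 (SE 0.18) and 2.49 (SE 0.20). Syk rose less, by 0.41 (adjusted p = 0.0484) and 0.57 (adjusted p = 9.21e-03). Card9, the adaptor after Syk, differed by 0.02 (adjusted p = 0.917) in WT and rose by 0.31 (adjusted p = 0.0231) in KO. Rel, an NF-kB subunit, rose by 1.15 and 1.68. Prkcd and Vav2 fell by 0.55 and 0.54 in WT. Syk, Card9, Prkcd and Vav2 fall outside the rule for named genes and were chosen after their values were seen. Of the 3 phosphatases of the inhibitory pathway, Inpp5d rose in WT, by 0.53, and all 3 rose in KO.

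Of 9 receptors and ligands that pair with Clec proteins, 5 rose in each genotype and none fell. Of all genes, 6.98% rose in WT and 8.98% in KO. Klrb1b, the receptor of Clr-b, rose by 2.01 (SE 0.20) in WT and 2.21 (SE 0.21) in KO. Pdpn, podoplanin, rose by 1.86 (SE 0.20) and 2.35 (SE 0.22). Vim, an intermediate filament gene, rose by 1.94 and 2.65, and was the only one of the 9 higher in KO than WT lesions (0.69, adjusted p = 0.0408). The list of targets of the Syk and Card9 pathway held 11 genes, which were cytokine and chemokine genes and Nlrp3. Of these, 6 rose in WT and 10 in KO, beside those same shares of all genes. Il1b rose by 6.02 and 7.08, and Cxcl2, a neutrophil-attracting chemokine, by 3.07 and 4.63.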

How the data were processed

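The authors deposited log2 expression values made with RMA in Affymetrix Power Tools 1.16.1, per the submitters' processing notes. The genome build they used is not given in the sources used here. The table held 72688 rows, of which 31258 had 1 gene symbol, 1492 several and 39938 none listed. Symbols were updated through the RefSeq gene table of GRCm38.p6, and the row with the highest mean was kept for 441 genes with several, which left 30702 genes. Groups were taken from the sample titles.

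All genes were fitted together in limma 3.58.1 (R 4.3.3), as 4 group means over 16 arrays. Tests were two-sided with empirical Bayes variances. A gene passed at a Benjamini-Hochberg adjusted p under 0.05 over all genes. The code was tested on simulated data. The 5 comparisons were lesions against controls in WT and in KO, KO against WT on control feed and in lesions, and the interaction. Values on every array are given for genes called with a log2 change of at least 1. From the other pathway lists at most 5 called genes per comparison are named. The number of arrays limits the precision.

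The genes, lists and tests were chosen with earlier results of these data known.

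Replicate numbers are shared between groups. Deviations of same-numbered arrays correlated at 0.33, 0.19 and 0.26 in the WT response and at 0.47, 0.36 and 0.52 in the lesion comparison. They correlated between -0.18 and -0.28 in the KO response and between -0.22 and -0.38 on the control diet. Whether same-numbered arrays are pairs is therefore not known.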

Additional observations from a re-analysis of the deposited data

Results flagged for a closer look

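In groups of 4 or more arrays, the gap between an extreme array and its neighbour was set against the group's range for each gene, in 66 tests, of which chance alone would pick about 1 in 20. Arrays far from the others were found in 5. Clec7a read 4.72 in WT control 3, where the other WT controls lay between 4.38 and 4.50. Clec2g read 6.30 in WT control 6, against 5.90 to 6.03. Clec2i read 4.99 in KO lesion 3, below 5.36 to 5.43 in the other KO lesions. Clec16a in the same KO lesion 3 read 7.40, below 7.50 to 7.51. Clec2f read 5.36 in KO lesion 2, above 4.81 to 4.88. With all arrays, none of the 5 genes except Clec7a passed in any comparison. Without KO lesion 3, Clec2i was higher in KO lesions than KO controls by 0.30 (adjusted p = 0.0438).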

How the results depend on the processing

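The counts that moved by more than 1.5 times are these. In WT lesions, fallen genes numbered 1 rather than 2 with the replicate block, with number series as a covariate and with WT controls of the lower series only. In KO lesions they numbered 2 rather than 1 when only genes above the array median were tested or quantiles were normalised again, and 0 with the replicate block. Between lesions, 4 genes were higher in KO with array weights (Clec2e, Clec4d, Clec4e and Clec7a), where 1.46% of all genes were higher. Leaving out 1 array at a time gave 1 to 3 fallen genes in WT, 1 to 2 in KO, 0 to 6 higher between lesions and 0 to 4 in the interaction, the upper values of the last 2 without KO lesion 3. Risen genes numbered 7 to 10 in WT and 7 to 12 in KO over all settings. No direction reversed among called values. The replicate block changed no other call in the WT response and lesion comparison than those of Clec14a and Clec9a. Both of these calls were also lost without a block when only WT controls of the lower series were kept. In the KO response and on the control diet, where same-numbered arrays correlated negatively, the block gave 7 rises and no call, respectively. In the KO response and the lesion comparison the block fit also left out KO lesion 4, which has no same-numbered partner. In the lesion comparison that fit called 0% of all genes. A fit of only the groups compared was not run for the interaction. Signal near background limits what can be said of the dim receptors.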

Other observations

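Among 25 C-type lectin receptors with other names, 7 rose in WT lesions, 8 in KO lesions and none fell. The shares of all genes that rose were 6.98% in WT and 8.98% in KO. Olr1, the receptor for oxidised lipoprotein, rose by 2.26 (SE 0.35) in WT and 4.54 (SE 0.38) in KO, and was higher in KO than WT lesions by 2.13 (adjusted p = 0.0348). Its WT lesions ranged from 6.60 to 6.94 and its KO lesions from 7.33 to 9.71, without overlap. Mrc1, the macrophage mannose receptor, rose by 0.88 and 1.34. Cd93 rose by 0.71 and 0.92. Cd69, an early activation marker of lymphocytes, differed by 0.99 in WT (adjusted p = 0.0601) and rose by 2.02 in KO (adjusted p = 8.18e-04).

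The NK cell markers, whose Klrb1 receptors bind Clr proteins, gave 0 of 5 calls in either response. Of 5 T cell markers, 3 rose in WT and 4 in KO, beside 6.98% and 8.98% of all genes.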
